A study of Mus musculus with 2 samples.

Results

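Ucn3, Mafa, G6pc2, Slc2a2 and Trpm5 are genes of the mature, glucose-responsive beta cell, and all 5 had fewer scaled reads in islets of a Brsk2 transgenic mouse line than in wild-type islets. They were picked for that direction, from the 54532 gene IDs of the count table, so their lower values restate the choice and are a description without a test. RNA was sequenced from pancreatic islets of male C57BL/6 mice aged 10 to 12 weeks. One group was wild type and the other, the transgenic line named Line20, carried a transgene over-expressing Brsk2, which encodes a kinase related to AMPK. Mice of both groups had drunk doxycycline, which can activate inducible transgenes, for 4 days when 8 to 10 weeks old. The sources used here do not give the promoter that drives the transgene or the number of mice behind each library, and the transgenic group is 1 line. With 1 library per group there is no spread between animals, so no difference below has a replicate check.

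Beta cells take up glucose, phosphorylate it, and turn the rise in ATP into electrical activity, calcium entry and insulin release. In rodents this response matures after birth, along with expression of the transcription factor MAFA and of the peptide UCN3. GLUT2, the product of Slc2a2, is the main route of glucose into the rodent beta cell. The enzyme encoded by G6pc2 removes the phosphate again and so opposes glucose sensing. TRPM5 is a calcium-activated cation channel that supports the electrical response. UCN3 is secreted with insulin and acts on CRHR2 of neighbouring delta cells.

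The DNA just upstream of the annotated gene starts is shown for Ucn3 and G6pc2, because the Ucn3 window and the one at a second G6pc2 start held motif matches. RefSeq promoters on GRCm38.p6 were found for 4 of the 5 members; Mafa was not among them and was not searched. The window at the first G6pc2 start, without a match, is shown beside the second. The first and second windows end at the gene starts of the count table, and the third at a second RefSeq start of G6pc2, 8876 bases further in. Each runs 5′ to 3′ for 250 bases up to the base before the start, and capitals mark motif matches.
Ucn3, chr13:3945350-3945599, minus strand: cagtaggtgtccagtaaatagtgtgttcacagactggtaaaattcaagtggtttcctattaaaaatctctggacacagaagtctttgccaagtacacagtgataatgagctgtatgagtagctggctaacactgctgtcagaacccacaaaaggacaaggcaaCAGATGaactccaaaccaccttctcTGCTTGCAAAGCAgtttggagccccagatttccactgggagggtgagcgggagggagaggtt
G6pc2, chr2:69210823-69211072, plus strand: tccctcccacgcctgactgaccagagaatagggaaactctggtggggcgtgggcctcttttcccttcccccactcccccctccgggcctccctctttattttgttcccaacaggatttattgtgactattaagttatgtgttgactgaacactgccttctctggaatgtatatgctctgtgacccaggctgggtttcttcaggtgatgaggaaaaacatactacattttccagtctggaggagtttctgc
G6pc2 second start, chr2:69219699-69219948, plus strand: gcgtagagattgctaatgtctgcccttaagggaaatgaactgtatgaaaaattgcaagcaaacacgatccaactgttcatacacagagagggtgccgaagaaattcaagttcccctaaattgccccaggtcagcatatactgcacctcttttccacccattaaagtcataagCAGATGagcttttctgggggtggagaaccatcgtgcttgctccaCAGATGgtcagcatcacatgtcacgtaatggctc

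Motifs were searched on both strands in these 250 bases. Searched were TGC and GCA with 6 (shorter) or 7 (longer) bases of any kind between them, both called MAF-type here. Wider gaps between TGC and GCA were not searched, so MAF elements with such gaps would be missed. The other motifs were the E-box CAGATG bound by factors such as NEUROD1, the homeodomain motif TAATTA, and the cAMP response element TGACGTCA. In Ucn3 the sequence TGCTTGCAAAGCA matched the longer MAF-type motif at positions -62 to -50 from the start, and CAGATG lay at -87 to -82. At the second G6pc2 start CAGATG occurred at -78 to -73 and at -34 to -29. No motif was found in these letters at the first G6pc2 start or upstream of Slc2a2 and Trpm5. Of 32851 promoter windows of the same length, 6.17% held the longer MAF-type motif, 6.79% the shorter one and 14.4% the E-box. TAATTA was in 4.84% of the windows and TGACGTCA in 1.55%. With 1 promoter for each of 12022 genes with at least 10 reads, the shares were 6.13%, 8.002% and 10.4% for the longer MAF-type motif, the shorter one and the E-box, 2.39% for TAATTA and 2.67% for TGACGTCA. Of the 29 other beta cell genes described below, 21 had a promoter in the table. Of those 4 held the E-box, 2 held TGACGTCA and 1 the shorter MAF-type motif. None held the longer MAF-type motif or TAATTA. A match is a description of the letters and not evidence of binding.

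Reads assigned to genes numbered 20389499 for the wild type and 16832312 for the transgenic line. Levels are CPM, counts of reads scaled by library size and edgeR's TMM factors; a single wild-type read was worth 0.0497 CPM and a transgenic one 0.0586 CPM. Each ratio is transgenic over wild type, with a 95% interval in brackets for counting error only, and fewer cells of a type cannot be told apart from less RNA per cell. Brsk2 itself had 732 wild-type and 1609 transgenic reads, a ratio of 2.59 [2.37, 2.83]. Islet hormone genes were abundant in both libraries, with Ins2 at 159492 CPM or more. The libraries also differed in other cell types. A gene is called higher or lower here where the ratio was past 1.5-fold with an interval that left out 1, as 7.78% and 5.89% of 17709 genes were. Of 35 markers of acinar cells, 33 were higher and 1 lower in the transgenic library, and their summed share of reads was 1.52% in the wild-type and 6.92% in the transgenic library. Of 9 alpha cell markers 3 were higher and none lower, summing to 19663 and 31210.2 CPM in wild-type and transgenic islets; the number higher was 1 after centring on GC content and length and 4 with library totals. Of 9 delta, gamma and epsilon cell markers 1 was higher, summing to 7112 and 10179 CPM. Stromal markers were higher for 6 of 12 and lower for 1, and summed to 158 and 218 CPM; endothelial markers were called for none of 10, at 309 and 274 CPM. Of 13 measured immune markers 2 were higher and 2 lower, summing with 2 sparser ones to 160 and 203 CPM. After centring on GC content and length, 4 immune markers and 1 endothelial marker were lower, and the latter was also lower with DESeq2 size factors and with scaling to the other beta cell genes. Ductal markers were higher for 3 of 10 and lower for 1, at 818 and 836 CPM. Among these markers Cela3a alone was at 0, in the wild-type library. The part of these cell types in the members' values was not tested, and the scalings and beta cell references given below do not test it.

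Ucn3 encodes the peptide that beta cells release with insulin. The gene (ENSMUSG00000044988) lies on the minus strand of chromosome 13 at 3940688 to 3945349 and has 2 exons. It had 4027 reads in the wild-type and 1338 in the transgenic library, or 200 and 78.4 CPM. The transgenic library was the lower one, with a ratio of 0.392 [0.368, 0.417], or 2.55-fold lower.

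Mafa encodes a basic leucine zipper factor that activates the insulin genes. It (ENSMUSG00000047591) is a gene of 1 exon on the minus strand of chromosome 15, 75745490 to 75748228. The wild-type library held 4449 of its reads and the transgenic library 2282, corresponding to 221 and 134 CPM. Its ratio was 0.605 [0.575, 0.636], or 1.65-fold lower.

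G6pc2 encodes the islet glucose-6-phosphatase catalytic subunit. Its position (ENSMUSG00000005232) is chromosome 2, plus strand, 69211073 to 69227841, and its longest transcript has 5 exons. With 35666 wild-type and 15171 transgenic reads it was the most deeply sequenced member, at 1773 and 889 CPM. The ratio of 0.502 [0.492, 0.511] corresponds to 1.99-fold lower in the transgenic library and sits next to the 2-fold line.

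Slc2a2 encodes GLUT2. It (ENSMUSG00000027690) occupies 28697903 to 28731359 on the plus strand of chromosome 3, with 11 exons. Reads numbered 5884 in the wild-type and 3061 in the transgenic library, for 292 and 179 CPM. The ratio was 0.614 [0.587, 0.641], or 1.63-fold lower, the smallest difference among the members.

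Trpm5, the cation channel gene (ENSMUSG00000009246), lies on the minus strand of chromosome 7 at 143069153 to 143094642, with 25 exons in its longest transcript. It had 2699 wild-type and 668 transgenic reads, or 134 and 39.2 CPM. This was the largest difference of the 5, with a ratio of 0.292 [0.268, 0.318], or 3.43-fold lower. In the authors' deposited table, which lists 20 genes as lower, Trpm5 had a log2 fold change of -1.77 and an adjusted p-value of 0.00944. The authors' deposited table did not list the other 4 members, and its smallest absolute log2 fold change was 1.57. That adjusted p-value comes from 1 library per group and does not measure the spread between animals.

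**Figure D1:**
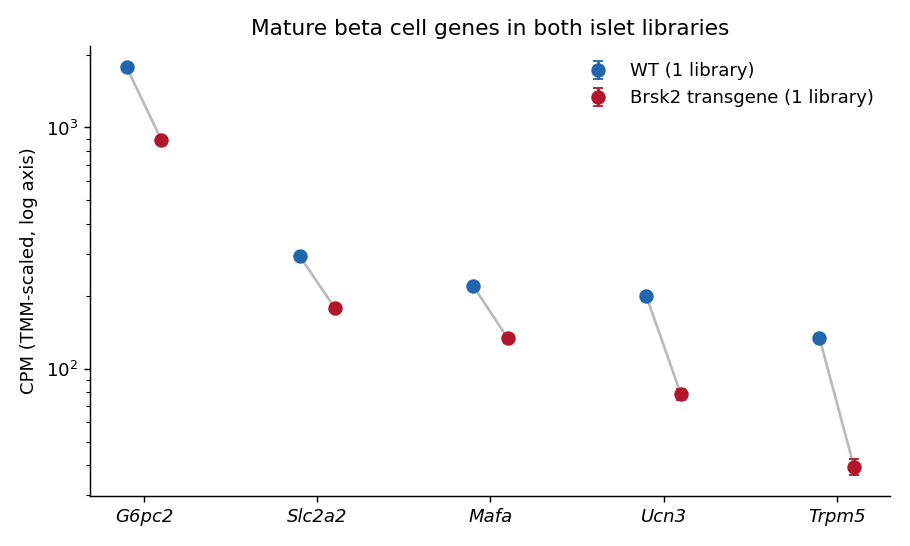
Level of each member in the wild-type (blue) and transgenic (red) library, in TMM-scaled CPM on a log axis; bars are exact 95% Poisson intervals for counting error in 1 library, mostly hidden by the points. Every red point lies below its blue partner, from 1773 against 889 CPM for G6pc2 to 134 against 39.2 CPM for Trpm5.

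Among the members the ratio of Trpm5 was 0.476 times that of Slc2a2, at the ends of the range, and the ratios of Mafa and Slc2a2 differed by a factor of 0.986. The median log2 ratio of the members was -0.995, beside 0.01 over the 17709 genes measured with 10 or more reads in all. All 5 were at least 1.5-fold lower with an interval below 1, a rule that 5.89% of the 17709 genes passed. At 2-fold, which 2.53% of genes passed as lower, Ucn3 and Trpm5 qualified. Since the members were chosen in this contrast, nothing is read from these counts.

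All members were deeply sequenced, so shares among well-read genes are the closer description. Among 5857 genes whose reads in both libraries summed to 1000 or more, 4.70% passed the 1.5-fold rule as lower and 0.768% the 2-fold rule. Of these genes, 2 had a lower ratio than Trpm5, and 13 had a lower ratio than Ucn3. The corresponding numbers were 45 for G6pc2, 145 for Mafa and 162 for Slc2a2. The members were chosen for lower values in this same contrast, so these numbers restate the choice.

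**Figure D2:**
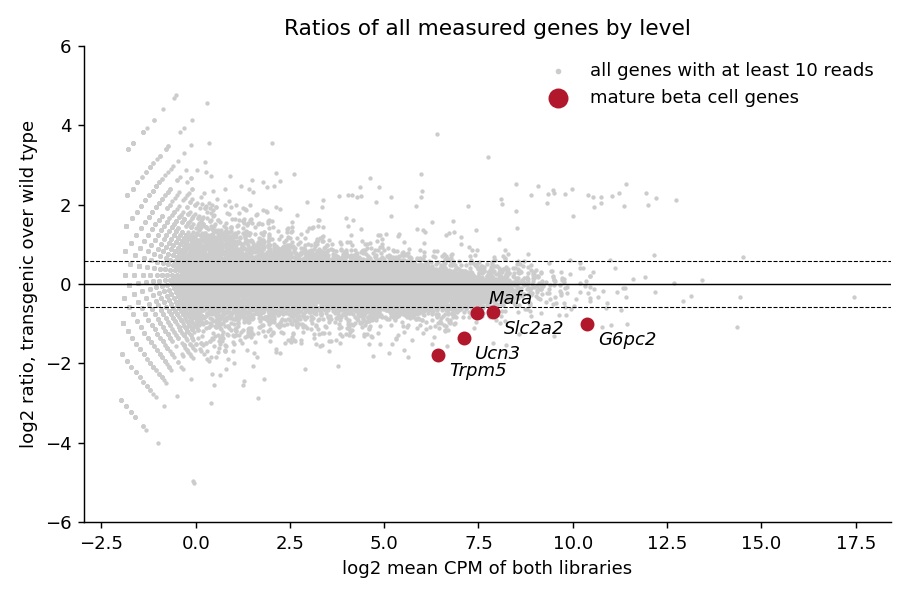
Log2 ratio, transgenic over wild type, against log2 mean CPM for genes with 10 or more reads in all and at least 1 in each library; dashed lines mark 1.5-fold and the vertical axis ends at 6 log2 units either way. The 5 members (red) lie below the lower dashed line, from -0.70 for Slc2a2 to -1.78 for Trpm5.

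Per kilobase of gene length, the order of the members was the same in both libraries. Levels are RPKM here, CPM divided by the length in the count table, which equalled the merged exons of GENCODE M21 for 98.0% of genes. G6pc2 stood highest at 898 RPKM in the wild-type and 451 RPKM in the transgenic library, ranks 30 and 63 among 14423 protein-coding genes. Ucn3 followed at 135 and 53.1 RPKM, ranks 203 and 597, and Mafa at 80.7 and 48.8 RPKM, ranks 368 and 639. Slc2a2 was at 50.8 and 31.2 RPKM, ranks 660 and 1116. Trpm5 was lowest at 20.97 and 6.12 RPKM, ranks 1852 and 5518. The neighbours Ucn3 and Mafa were 1.68-fold apart in the wild-type library and 1.09-fold apart in the transgenic one. There their counting intervals, 50.3 to 56.0 and 46.9 to 50.9 RPKM, overlapped, while those of the other neighbours did not in either library.

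Reads of the members were next set against those of single beta cell genes in the same library, which needs no library scaling. Per 1000 reads of Ins2, Ucn3 had 1.00 reads in the wild-type and 0.492 in the transgenic library, and Trpm5 had 0.673 and 0.246. G6pc2 had 8.89 and 5.58 reads per 1000 Ins2 reads. Mafa had 1.11 and 0.839, and Slc2a2 had 1.47 and 1.13. All 5 were thus lower in the transgenic library relative to Ins2, by ratios of 0.365 (Trpm5) to 0.767 (Slc2a2). Relative to Iapp, the islet amyloid peptide gene, the ratios ran from 0.366 to 0.768, and relative to the transcription factor Pdx1 from 0.278 to 0.583.

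Relative to Ins1 the picture divided. Ins1 had 572416 wild-type and 230946 transgenic reads and a ratio of 0.476 [0.474, 0.478]. Per Ins1 read, Trpm5 and Ucn3 remained lower, at 0.613 and 0.824. G6pc2 was at 1.05, Mafa at 1.27 and Slc2a2 at 1.29, so that these 3 were above 1. Ins1 and Ins2 are close paralogs, and the sources used here do not say how the counting divided reads between them.

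**Figure D3:**
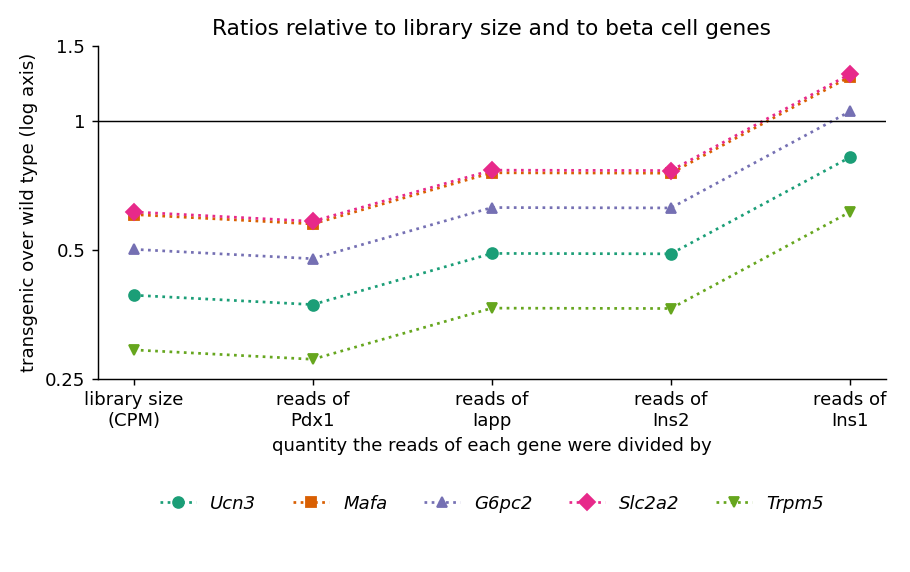
Transgenic over wild-type ratio of each member (log axis) when its reads are divided by library size or by the reads of 1 beta cell gene; dotted lines only join the points of a gene. All 5 members are below 1 except relative to Ins1, where Mafa, Slc2a2 and G6pc2 are at 1.27, 1.29 and 1.05.

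Beta cell genes outside the chosen group were spread on both sides of 1. The members had been set apart for being lower, so the remaining genes are short of lower values by that choice. Of 29 other genes of beta cell identity and function, 6 were called lower, 5 higher and 18 neither, with a median log2 ratio of 0.04. Over all genes 5.89% were lower and 7.78% higher by the same rule. Ratios were below 1 for 13 of the 29 and above 1 for 16, with Pcsk2 at 0.934 and Prlr at 1.01 nearest to the line. The lower genes were Npas4, an activity-dependent transcription factor, at 0.446 [0.415, 0.479], Ins1, Sytl4, the granule protein granuphilin, at 0.573 [0.547, 0.600], the incretin receptor gene Glp1r at 0.580, the zinc transporter gene Slc30a8 at 0.605 and Gjd2, the gap junction protein connexin 36, at 0.644 [0.616, 0.673]. Of these, 5 had a ratio below that of Slc2a2, the highest of the members. Just inside the 1.5-fold line was Gjd2 and just outside was Iapp at 0.799.

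Apart from Npas4, no transcription factor among these 29 genes was called lower. Isl1 had a ratio of 2.47 [2.31, 2.64], Rfx6 2.28 [2.15, 2.42], Foxa2 1.55 and Nkx2-2 1.502, all called higher, and other endocrine cells express them as well. Nkx2-2 lay at the 1.5-fold line and did not pass it with DESeq2 size factors or with scaling to the other beta cell genes, either of which left 4 of the 29 called higher. The fifth higher gene was Rasgrp1, with 7 and 16 reads. Pdx1 was at 1.05 [0.981, 1.13], Neurod1 at 1.08 and Nkx6-1 at 1.37 [1.31, 1.43]. The convertase gene Pcsk1, at 1.11, and Pcsk2 also lay inside 1.5-fold.

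**Figure D4:**
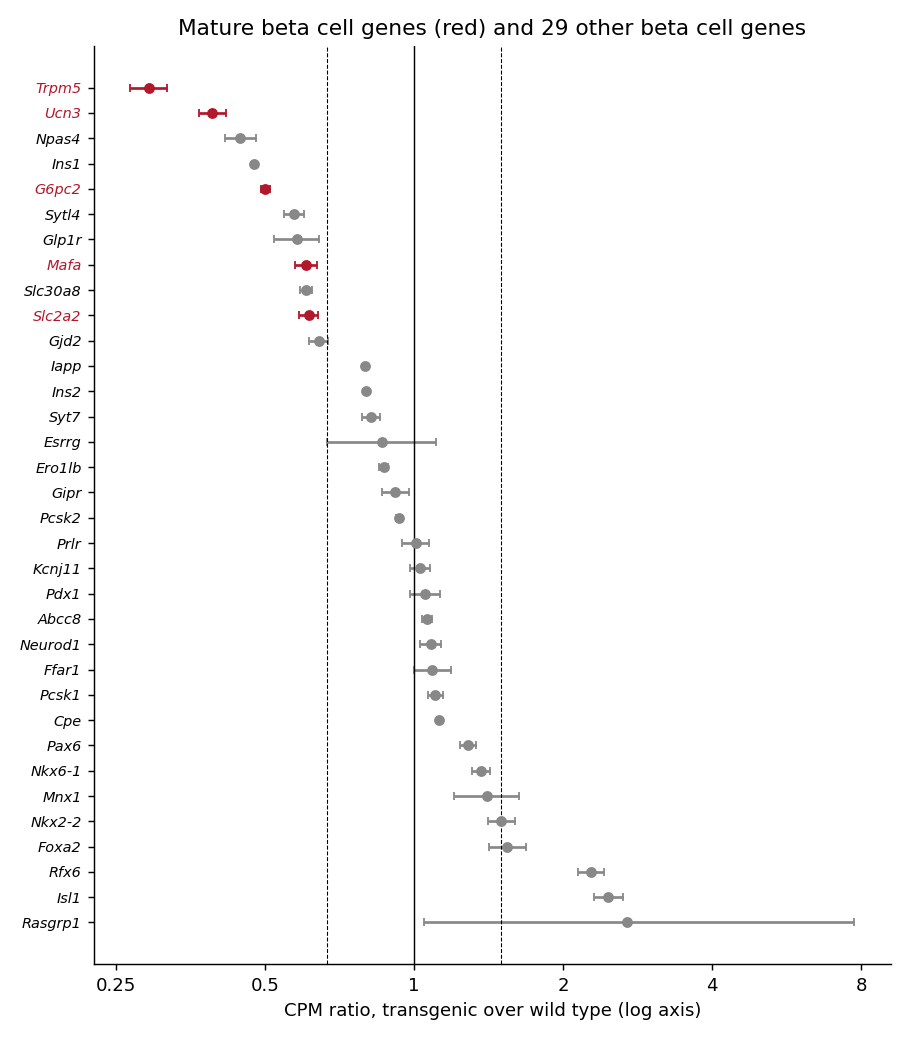
Ratios of the 5 members (red) and 29 other beta cell genes (grey), transgenic over wild type on a log axis, with 95% counting intervals; dashed lines mark 1.5-fold. The members lie between 0.292 and 0.614, and the grey genes run from 0.446 for Npas4 to 2.70 for Rasgrp1.

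The relatives and partners of Ucn3 were barely detected in these islets. UCN3 belongs to the corticotropin-releasing factor family, and it was the only peptide of that family with more than 4 reads in a library. Crh and Ucn had 0 reads in both libraries, and Ucn2 had 0 wild-type and 4 transgenic reads. Crhr2, the receptor for UCN3 on delta cells, had 29 and 27 reads and a ratio of 1.098 [0.626, 1.92]. Crhbp, which encodes a binding protein for the family's peptides, had 17 and 7 reads, a ratio of 0.486 [0.170, 1.23]. Differences in these receptors were not detectable at this depth. The delta cell hormone gene Sst, whose secretion UCN3 promotes in mouse islets, was at 1.31 [1.30, 1.33].

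Of 4 measured relatives of Mafa, 1 was called higher and none lower, beside 7.78% and 5.89% of all genes. The small MAF proteins, partners that lack an activation domain, were all below 1 without passing 1.5-fold, with Maff at 0.706 [0.669, 0.745], Mafk at 0.750 and Mafg at 0.890. Maf, a large MAF factor like Mafa, was the higher one, from 9 and 22 reads. Nrl, the retinal member of the family, had 4 wild-type and 0 transgenic reads.

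Genes for enzymes and transporters that share glucose 6-phosphate with the G6pc2 product mostly lay inside 1.5-fold. Of 15 measured, none was lower and 1 was higher, beside 5.89% and 7.78% of all genes. Their median log2 ratio was -0.00081. Per length, G6pc2 was 30.2 times Slc37a4 and 79.3 times G6pc3 in the wild-type library, and 19.8 and 39.1 times in the transgenic one. The transporter gene Slc37a4, which carries glucose 6-phosphate into the endoplasmic reticulum, was at 0.767 [0.711, 0.828]. The ubiquitous catalytic subunit G6pc3 was at 1.02 [0.893, 1.16] and G6pdx, the entry enzyme of the pentose phosphate pathway, at 0.743 [0.635, 0.868]. G6pc, the liver subunit, had 0 reads in both libraries. The higher gene was Hk2, a low-Km hexokinase that mature beta cells keep low, with 31 and 45 reads.

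Glucose transporters other than Slc2a2 were split. Of 11 measured, 2 were called lower and none higher, beside 5.89% and 7.78% of all genes. Slc2a1, which encodes GLUT1, had 804 wild-type and 288 transgenic reads, and its ratio of 0.423 [0.368, 0.484] was below that of Slc2a2. Slc2a6 was at 0.567 [0.508, 0.632]. Slc2a5, which encodes the fructose transporter GLUT5, was at 0.956 [0.912, 1.00]. Per length, Slc2a2 was 0.875 times Slc2a5 in the wild-type and 0.562 times in the transgenic library, and 4.46 and 6.47 times Slc2a1. Slc2a3, at 1.47 [1.12, 1.95] from 96 and 120 reads, did not pass 1.5-fold.

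Of 5 other measured TRPM channel genes, none was called in either direction. For this list and the next, 7.78% of all genes were higher and 5.89% lower. Trpm4, the closest relative of Trpm5 in function, was at 0.800 [0.717, 0.891], Trpm2 at 0.799 [0.633, 1.01] and Trpm7, a channel with a kinase domain, at 0.956. Trpm3 was at 1.38 [1.13, 1.70]. Per length, Trpm5 was 5.49 times Trpm4 in the wild-type and 2.004 times in the transgenic library. Of 18 genes of beta cell electrical activity, 1 was higher, the sodium channel gene Scn3a at 2.11 [1.85, 2.40], and none lower, with a median log2 ratio of -0.18. The subunits of the ATP-sensitive potassium channel were at 1.06 (Abcc8) and 1.03 (Kcnj11). Atp2a2, the calcium pump of the endoplasmic reticulum, was at 0.676 [0.663, 0.691] and Kcnk3 at 0.695. With scaling to the other beta cell genes 1 gene of electrical activity, Atp2a2, passed as lower.

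**Figure D5:**
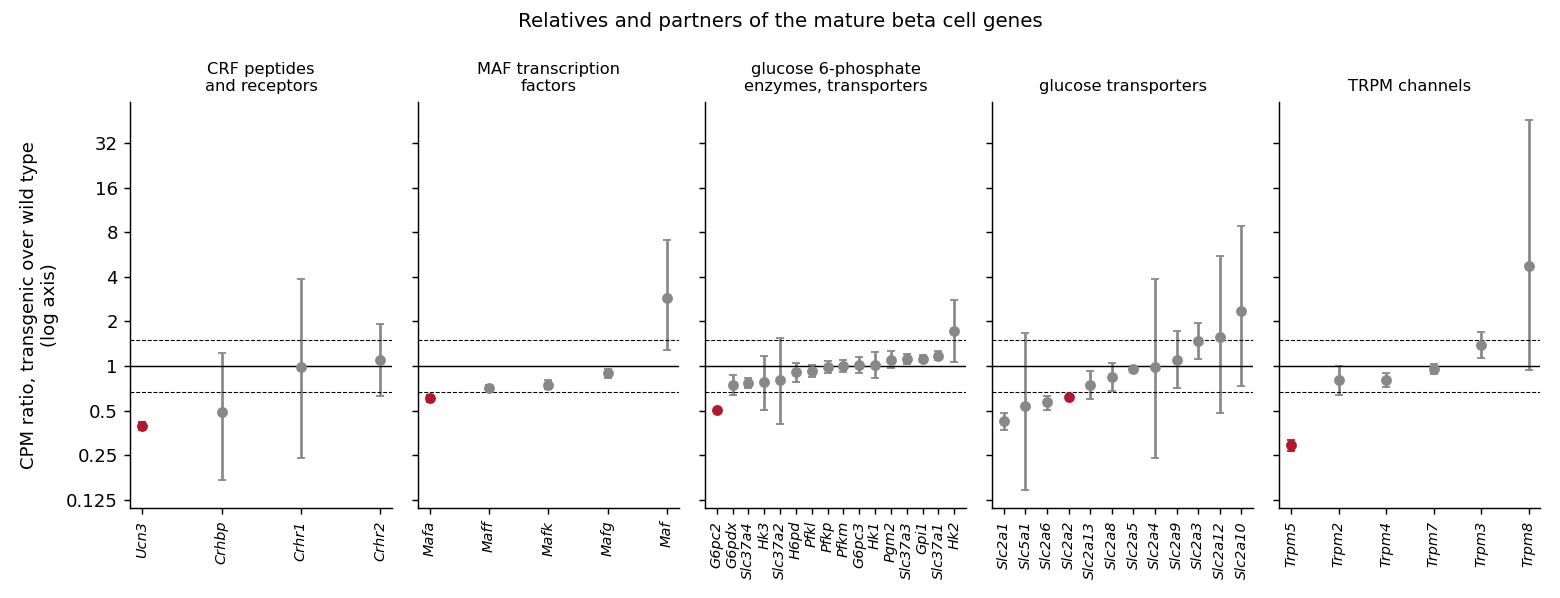
Ratios, transgenic over wild type on a log axis, of each member (red) and the measured genes of its family or pathway (grey), with 95% counting intervals; dashed lines mark 1.5-fold. Red points are the lowest of their panel except Slc2a2 at 0.614, which Slc2a1 at 0.423 and Slc2a6 at 0.567 undercut, as did Slc5a1 with 11 and 5 reads.

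Genes of immature or dedifferentiated beta cells, and genes that beta cells keep low, were described next. Of 9 measured genes of immature or dedifferentiated beta cells, 2 were at least 1.5-fold higher and none lower, with a median log2 ratio of 0.54. Over all genes 7.78% were higher and 5.89% lower by the same rule. The 2 higher genes were the tetraspanin gene Cd81 at 2.43 [2.27, 2.60] and the endocrine progenitor factor gene Neurog3 with 33 and 59 reads. With the whole interval required past 1.5-fold, 1 was called higher, Cd81. Rbp4, also a delta cell gene, was at 1.46 [1.39, 1.53]. Npy, the neuropeptide Y gene, had 144 and 175 reads and a ratio of 1.43 [1.14, 1.80]. Aldh1a3, a marker of dedifferentiated beta cells, had 18 and 12 reads. Of 16 disallowed genes, which beta cells keep low relative to other tissues, 6 were higher and 1 lower, with a median log2 ratio of 0.40. The shares over all genes were 7.78% and 5.89%. Of the 6, 3 passed at 2-fold and 0 with the whole interval past 1.5-fold, while the lower gene passed both. Among the 6 were Maf (9 and 22 reads), Mylk (27 and 46) and Hk2 (31 and 45). Igfbp4 was at 2.14 from 49 and 89 reads and Ndrg2 at 1.97 [1.46, 2.67]. The lower gene was Zyx, which encodes the focal adhesion protein zyxin, at 0.492 [0.450, 0.538]. Ldha, the lactate dehydrogenase gene, was at 1.29, and Slc16a1, the lactate transporter gene, had 57 and 60 reads. The transgenic library also held the higher acinar, alpha and stromal markers given above, and their part in these values was not tested.

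The neighbours of the members on the chromosome did not share a direction. Of 30 flanking protein-coding genes, the 3 nearest on each side with at least 10 reads, 2 were at least 1.5-fold lower and 6 higher, beside 5.51% and 7.07% of all protein-coding genes. Spc25, 4.88 kb from G6pc2, was at 0.701 [0.665, 0.740], and Nostrin, the next gene on that side, at 1.95 [1.40, 2.73]. Zc3h3, 6.20 kb from Mafa, was at 0.658 [0.559, 0.773]. No neighbour of Slc2a2 was called, the nearest being Tnik at 0.891 [0.785, 1.01]. Beside Ucn3, Akr1c13 and Akr1c19 were higher, at 1.83 and 1.54, and Net1 was at 1.36 [1.04, 1.78].

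The surroundings of Trpm5 held ratios far from 1 in both directions. Cd81, which ends 1.22 kb from Trpm5, was at 2.43, and Kcnq1, a potassium channel gene 11.7 kb away on the other side, had 14 and 51 reads, a ratio of 4.30 [2.34, 8.41]. Th, encoding tyrosine hydroxylase, 138 kb away, had 1096 and 324 reads, a ratio of 0.349 [0.307, 0.395]. Slc22a18 had 9 and 39 reads. Tssc4, which overlaps Trpm5 on the opposite strand, had 1392 and 1237 reads and a ratio of 1.05. The sources used here do not say if the kit marked strand, so reads from the overlap of Trpm5 and Tssc4 cannot be assigned with certainty. Slc2a2 is overlapped by an antisense gene, 1700112D23Rik, with 14 and 16 reads. Trpm5 lies on the same chromosome as Brsk2, 1.06 megabases away. Of the 10 measured protein-coding genes between them, among them Ins2, 2 were lower and 1 higher (Cd81), with a median log2 ratio of 0.03. The lower ones were Th and Dusp8, a phosphatase gene of MAP kinase control, at 0.511 [0.477, 0.546]. Over all protein-coding genes 5.51% were lower and 7.07% higher.

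The genes with the most similar pair of levels were found by distance in log2 CPM over the 2 libraries, leaving out the members. Odc1, the ornithine decarboxylase gene, was nearest to Slc2a2, at 293 and 179 CPM, followed by Ninj1. Edem1, which acts in degradation of misfolded glycoproteins, was nearest to Mafa, at 219 and 132 CPM, followed by Tor3a. Nr4a1, an immediate early nuclear receptor, was nearest to Trpm5, at 113 and 39.6 CPM, followed by Plk3. For Ucn3 they were Atf5 and Birc3, with ratios of 0.509 and 0.497, and for G6pc2 the more distant Calr and Sqstm1, with ratios of 0.746 and 0.783. With 2 libraries, such likeness is a match of 2 numbers per gene and no more.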

How the data were processed

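Islet RNA was extracted with Trizol and libraries were made from 1 microgram with a TruSeq kit, per the labels' protocols. The authors deposited raw read counts per Ensembl gene ID; the sources used here do not give the aligner, counting program or genome build. Of 54532 IDs, 54495 were in GENCODE M21 (GRCm38), with the same start and end for 98.3%, so GRCm38 was taken as the build. A second table the authors deposited holds 108 listed genes with normalized counts (signal, counts divided by a constant per library), log2 fold changes, p-values and adjusted p-values. DESeq2 1.10.1 is named in the submitters' processing notes.

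Genes under 10 reads in all were left out, leaving 17709. TMM factors (edgeR 4.0.16, R 4.3.3) were 0.987 and 1.01. Ratios carry exact Clopper-Pearson 95% intervals (SciPy 1.17.1). Intervals cover counting error only. They treat reads as independent and may be too narrow, since PCR copies of 1 molecule can be read more than once. A gene was called higher or lower at a ratio past 1.5-fold with an interval that left out 1; no test between groups was made, since each group has 1 library. The calling steps were tested on simulated counts with planted ratios and counting error only. That simulation had no spread between animals, so it does not bear on such spread.

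The members and the 16 gene lists were chosen with earlier results of these data known. Some list genes are not reported here and were left out of the lists. Named genes were the members, Brsk2, Ins1, Ins2, the members' families, flanking and most similar genes, and in the lists of beta cell genes the most abundant gene and the 3 with the largest absolute log2 ratio given 100 reads. The rule also covered the marker lists of other cell types, but apart from Cela3a, Sst and Rbp4 those are given by counts and sums alone. Further genes were named after their values were seen. Figures were drawn with matplotlib 3.10.9.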

Additional observations from a re-analysis of the deposited data

How the results depend on the processing

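No paired analysis was possible because each group has 1 library, and for the same reason no replicate could be left out. All alternatives were planned. The alternative scalings were library totals, DESeq2 1.42.0 size factors and TMM without acinar markers and hormones. Scaling to the other beta cell genes and centring in 10 bins each of GC content and length were also used. Under all of these the members kept their direction and all 5 stayed at least 1.5-fold lower. The members were chosen as lower on reads scaled to library size, so the kept direction restates that choice and is not a check. Across these scalings Trpm5 ran from 0.284 to 0.305, Ucn3 from 0.376 to 0.402, Mafa from 0.588 to 0.627 and Slc2a2 from 0.597 to 0.630. Without acinar markers and hormones Ucn3 was at 0.392. G6pc2 left its narrow counting interval with library totals (0.515), with scaling to the other beta cell genes (0.488) and with centring (0.484), and with DESeq2 size factors it was at 0.4997, past 2-fold. By construction fewer genes pass a stricter rule. At 2-fold 2 members, 448 genes lower and 755 higher, and 6 list genes lower (14 at 1.5-fold) were called. With the whole interval required past 1.5-fold, the numbers were 361 lower and 438 higher, with 9 list genes lower, beside 1043 and 1377 in the report. Dividing by Ins1 instead of Ins2 reads reversed Mafa (1.27), G6pc2 (1.05) and Slc2a2 (1.29), and moved Ucn3 to 0.824 and Trpm5 to 0.613. This follows from the lower ratio of Ins1. Dividing by Pdx1 gave 0.373 for Ucn3, 0.575 for Mafa, 0.477 for G6pc2, 0.583 for Slc2a2 and 0.278 for Trpm5. Of 288 counts for single lists under alternatives, 33 moved, by over 1.5 times or to or from 0. Of these, 23 moved under the stricter fold rules.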
